A study of Mus musculus with 4 samples.

Results

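The cells described here are the dividing cells among mouse bone and bone marrow cells that carry a tdTomato lineage mark for Tnfsf11, the gene of RANKL, the cytokine that drives osteoclast formation. A cell was counted as cycling when it held at least 3 transcripts (unique molecular identifiers, UMIs) of the proliferation genes Mki67, Top2a and Cenpf together, no UMI of the leukocyte gene Ptprc, and fewer than 300 haemoglobin UMIs per 10000. The cells were thus chosen by the measured UMIs of these genes, so their levels are a description and carry no test. The rule found 120 cycling cells among 2825 kept cells, that is cells with at least 500 genes and under 10% mitochondrial UMIs.

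The immobilized group had its hindlimb immobilized for 2 weeks from 8 weeks of age, and the control group did not. Both groups were C57BL/6J mice of genotype Tnfsf11tTA/+;LC1;R26-tdTomato at 10 weeks of age, and both had received doxycycline from embryonic day 0 until birth. In these mice the tetracycline transactivator sits at 1 Tnfsf11 allele, LC1 is a Cre that it drives, and Cre switches on the reporter, so the mark is inherited and does not show that a cell expresses Tnfsf11 now. Femurs and tibias with their marrow were digested, and live cells negative for CD45.2 and Ter119 and positive for tdTomato were sorted into 10x Genomics 3' v3.1 reactions. The immobilized library is 1 pool of 6 mice and the control library is 1 pool of 4 mice. Each pool was read on 2 sequencing lanes, which share 1747 of 1751 barcodes in the immobilized pool and 1617 of 1620 in the control pool, so a group is 1 sample and no difference between groups could be tested against the spread between animals. Intervals are 95% intervals that cover counting error only.

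Lane 1 held 9960011 UMIs in the immobilized pool and 10732720 in the control pool. The median kept cell had 5691 UMIs in 1399 immobilized cells and 5592.5 in 1426 control cells, and the median mitochondrial share was 4.41% in the immobilized pool and 3.34% in the control pool. The immobilized and control pools share 3 barcodes.

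Mki67, Top2a and Cenpf are made from S phase to mitosis, as DNA is copied, untangled and attached to the spindle. Osteoblasts arise from stromal cells of the marrow and periosteum. Division belongs to the early steps of that path and ends as the cell becomes a matrix-making osteoblast that secretes osteocalcin, the product of Bglap, while the Cxcl12-abundant reticular (CAR) cells that support blood formation divide rarely in the adult. Panx3, a channel gene of early osteoblasts, Wif1, a secreted Wnt inhibitor of osteo-primed stroma, Bglap and Cxcl12, the chemokine of CAR cells, therefore mark different stations of the lineage. By the RefSeq annotation of GRCm38.p6, the build that corresponds to mm10, Panx3 lies on chromosome 9 from 37659902 to 37669222, Wif1 on chromosome 10 from 121034004 to 121100642, Bglap on chromosome 3 from 88383495 to 88384466 and Cxcl12 on chromosome 6 from 117168535 to 117181368.

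The immobilized pool held 80 cycling cells, 5.72% of its kept cells, and the control pool held 40, or 2.81%. The difference was 2.91 percentage points (interval 1.43 to 4.45). Not all of these cells carried a skeletal programme, however. A cell with UMIs of at least 3 genes of a list of 35 blood genes is called gate-positive here. Of the cycling cells, 37 of 80 were gate-positive in the immobilized pool (46.3%) and 11 of 40 in the control pool (27.5%), and 34 of the 37 and 10 of the 11 had a blood marker list as their leading list. Without them, 43 gate-negative cycling cells remained in the immobilized pool (3.07% of kept cells) and 29 in the control pool (2.03%), a difference of 1.04 points with an interval of -0.13 to 2.25. The gate-positive share of all kept cells moved the same way, at 8.29% in the immobilized pool and 5.47% in the control pool.

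The gate-positive cycling cells held transcripts of red cell precursors, which goes against the lineage label for these cells. Car2, a carbonic anhydrase that red cell precursors and osteoclasts make in quantity, stood at 2156 UMIs per 1000000 (CPM) in gate-positive cycling cells of the immobilized pool and 2315 CPM in those of the control pool, against 133 and 56.1 CPM in the gate-negative ones. It was found in 32 of 37 immobilized and 8 of 11 control gate-positive cells. Tfrc, the transferrin receptor gene through which red cell precursors take up iron, was found in 28 and 8 of them. Ermap, an erythroid membrane protein gene, had 149 UMIs in 30 of 37 immobilized cells and 41 UMIs in 7 of 11 control cells, and Rhag, the Rh-associated glycoprotein gene, was found in 26 and 6 of them. Ikzf1, a transcription factor gene of blood cells, was found in 31 of 37 immobilized and 6 of 11 control cells. Ermap, Rhag and Ikzf1 are among the 35 genes that define a gate-positive cell, so their presence was set in part by that choice and supports nothing, whereas Car2 and Tfrc are not among them. The sort had been set against Ter119. The bone collagen gene Col1a1 stood at 3742 CPM in the immobilized and 597 CPM in the control gate-positive cycling cells, but 1 immobilized cell held 548 of the 656 UMIs, and the medians over cells were 5.63 per 10000 UMIs in the immobilized and 8.24 in the control pool. In gate-negative cycling cells it stood at 26538 CPM in the immobilized and 20692 CPM in the control pool.

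The reporter transcript was found more often in gate-negative cells of the immobilized pool, while the control pool held too few gate-positive cells to tell. A tdTomato UMI was found in 22 of 43 immobilized gate-negative cycling cells (51.2%) and 10 of 29 control ones (34.5%). In cells within the limits that were gate-negative and not cycling, called other skeletal cells here, the shares were 36.0% of 1222 immobilized and 31.9% of 1314 control cells. It was found in 2 of 37 immobilized gate-positive cycling cells and in 0 of 11 control ones, which allows a share of up to 27.3%. Gate-positive cells were shallower, with a median of 4071 UMIs in the immobilized and 2709 in the control pool, against 7679 and 10320 in gate-negative cycling cells. Thinned to 2000 UMIs per cell, which left out 5 cells in each immobilized set and 2 gate-negative and 1 gate-positive cell in the control pool, the reporter was found in 9 of 38 gate-negative and 0 of 32 gate-positive immobilized cells, and in 2 of 27 (7.41%) and 0 of 10 control cells, where 0 of 10 allows a share of up to 30%. How far the sort let in cells without the mark was not tested.

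Each cell was then assigned to the marker list on which it scored highest, out of 10 skeletal and 6 blood lists. In gate-negative cycling cells the osteo-primed stroma list, with Wif1, Tnc and Mmp13, led in 15 of 43 immobilized and 16 of 29 control cells. The early osteoblast list, with Panx3, Sp7 and Runx2, led in 13 and 5. These lists together led 28 of 43 immobilized cells (65.1%) and 21 of 29 control cells (72.4%). The mature osteoblast list led in 2 immobilized and 3 control cells, the chondrocyte list in 3 and 0, and the CAR list in 0 and 0. A blood list led 8 immobilized and 2 control gate-negative cells, 7 and 1 of them the erythroid list, so the gate did not remove every cell of that kind. Among the other skeletal cells a blood list led 63 of 1222 immobilized and 47 of 1314 control cells, so that set is not purely skeletal. The best and second-best lists lay within 0.1 of each other in 3 cycling cells of each pool.

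**Figure D1:**
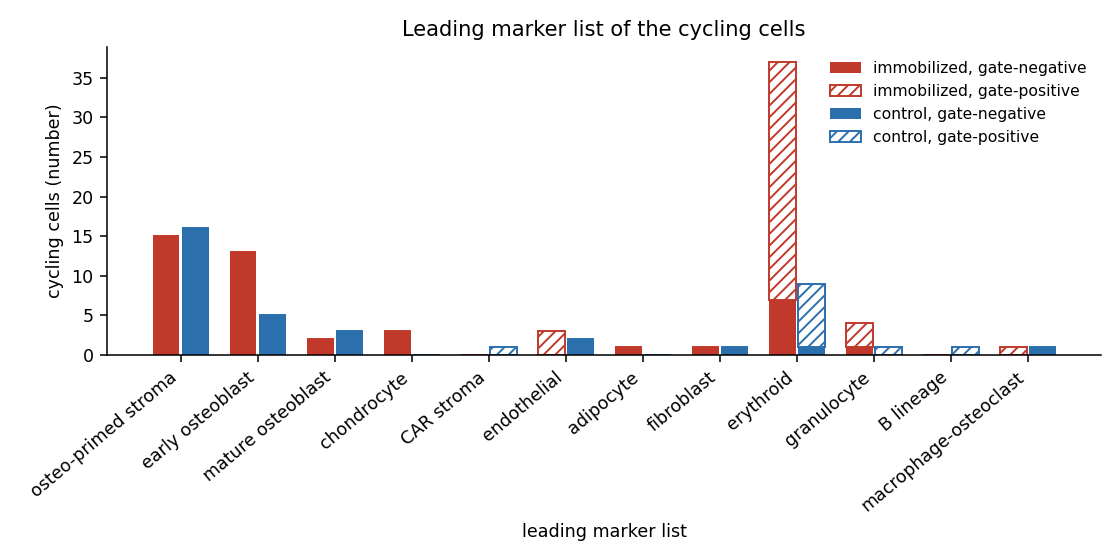
Number of cycling cells (vertical axis) by the marker list on which each cell scored highest (horizontal axis), with the immobilized pool left of the control pool, solid bars for gate-negative and hatched bars for gate-positive cells. Solid bars stand mostly over the osteo-primed and early osteoblast lists (15 and 13 immobilized, 16 and 5 control cells) and hatched bars over the erythroid list (30 and 8).

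Read the other way, the share of cells that were cycling differed along the lineage. Among cells within the Ptprc and haemoglobin limits, 15 of 328 immobilized (4.57%) and 16 of 189 control (8.47%) cells led by the osteo-primed list were cycling, as were 13 of 224 (5.80%) and 5 of 80 (6.25%) led by the early osteoblast list. Of cells led by the mature osteoblast list, 2 of 215 immobilized (0.930%) and 3 of 360 control (0.833%) cells were cycling. Of CAR-led cells the count was 0 of 279 in the immobilized pool, which allows a share of up to 1.08%, and 1 of 551 in the control pool (0.181%), and that cell was gate-positive. The chondrocyte list led few cells, of which 3 of 26 immobilized (11.5%, interval 2.45 to 30.2) and 0 of 21 control cells were cycling. Of cells led by the erythroid list, 37 of 55 immobilized (67.3%) and 9 of 17 control (52.9%) cells were cycling. Most cycling cells led by a skeletal list were thus of the osteo-primed and early osteoblast lists in both pools, 28 of 38 in the immobilized and 21 of 28 in the control pool. Over both of those lists, 28 of 552 immobilized (5.07%) and 21 of 269 control (7.81%) cells were cycling, a difference of -2.73 points (interval -6.86 to 0.68). The immobilized pool had more cells led by these lists, 554 of 1399 kept cells (39.6%) against 270 of 1426 in the control pool (18.9%).

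Wif1 was the most widely found of the stage genes after Bglap. In gate-negative cycling cells it was found in 28 of 43 immobilized (65.1%) and 24 of 29 control (82.8%) cells, at 269 and 436 CPM. Per 10000 UMIs it ran over cells from 0 through a median of 2.06 to 8.52 in the immobilized pool and from 0 through 3.07 to 16.1 in the control pool, so the pools overlapped over most of their range. The immobilized over control log2 ratio was -0.69 (interval -1.08 to -0.32). In other skeletal cells Wif1 stood at 328 CPM in the immobilized and 221 CPM in the control pool, a log2 ratio of 0.57, of the other sign. As a measure of free RNA, Wif1 was found in 2.53% of 79 immobilized and 13.4% of 67 control gate-positive cells that were not cycling, whose median depths were 2658 and 4146 UMIs. Thinned to 2000 UMIs, it was found in 39.5% of immobilized and 44.4% of control gate-negative cycling cells.

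Panx3 was found in 18 of 43 immobilized (41.9%) and 7 of 29 control (24.1%) gate-negative cycling cells, at 107 and 53 CPM. The log2 ratio was 0.98 (interval 0.16 to 1.92), and that of other skeletal cells was 1.84, at 64.9 and 18.1 CPM. Over all cycling cells the ratio was 0.76 and turned to -0.078 (interval -1.43 to 1.37) with a stricter cell filter. Panx3 stood above the level of other skeletal cells in both pools, by 0.73 in the immobilized and 1.59 on the log2 scale in the control pool. The highest cell held 8 UMIs in the immobilized and 5 in the control pool. Thinned to 2000 UMIs, it remained in 8 of 38 immobilized cells (21.1%) and in 0 of 27 control cells, which allows a share of up to 11.1%. Gate-positive cells that were not cycling had it in 3.80% of the immobilized and 0% of the control pool before thinning. Of the 18 immobilized cells with Panx3, 13 also held Wif1, as did all 7 control cells with Panx3. A further 15 immobilized and 17 control cells held Wif1 without Panx3, and 10 and 5 held neither.

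Bglap and Cxcl12 stood far below their level in other skeletal cells. Bglap stood at 509 CPM in immobilized and 2854 CPM in control gate-negative cycling cells, against 4495 and 15765 CPM in other skeletal cells, log2 ratios of -3.14 and -2.46. Over cells it ran from 0 through a median of 2.07 to 61.3 per 10000 in the immobilized pool and from 0.477 through 4.84 to 356 in the control pool, and 1 control cell led by the mature osteoblast list held 715 of the 916 control UMIs (78.1%). The immobilized over control log2 ratio of -2.48 (interval -2.72 to -2.26) was -1.02 with the highest cell of each pool left out, so its size rests on that cell. Bglap UMIs were also found in 59.5% of immobilized and 91.0% of control gate-positive cells that were not cycling. Thinned to 2000 UMIs those shares were 47.8% and 47.9%, against 44.7% of immobilized and 63.0% of control gate-negative cycling cells, so single Bglap UMIs in a cell cannot be told apart from free RNA. In gate-positive cycling cells the thinned counts were 14 of 32 immobilized (43.8%) and 10 of 10 control cells. Unthinned, Bglap stood there at 274 and 896 CPM, a log2 ratio of -1.71 (interval -2.32 to -1.10). How much of the Bglap difference between pools is free RNA was not tested.

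Cxcl12 stood at 903 CPM in immobilized and 1140 CPM in control gate-negative cycling cells, against 3755 and 5413 CPM in other skeletal cells. These UMIs came from few cells, since 4 of 43 immobilized and 3 of 29 control cells held 20 or more, with a median of 1.25 and 1.33 per 10000 over all cells. Lepr, the leptin receptor gene of the same stroma, reached 5 UMIs in 1 of the 4 and 2 of the 3. Thinned shares of Cxcl12 were 34.2% in the immobilized and 29.6% in the control pool, against 30.4% and 16.7% of gate-positive cells that were not cycling. The log2 ratio between pools was -0.34 (interval -0.55 to -0.12), and in other skeletal cells it was -0.53. Over all cycling cells it was -0.34 and turned to 0.22 with 2 rule UMIs as the minimum. In gate-positive cycling cells Cxcl12 was higher than in gate-negative ones, at 1500 CPM in the immobilized and 2819 CPM in the control pool. There 4 of 37 immobilized and 1 of 11 control cells held 20 or more UMIs. Lepr reached 5 UMIs in 3 and 1 of these cells. Scrublet called 3 of the 37 doublets, and whether these Cxcl12 UMIs came from doublets was not tested.

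**Figure D2:**
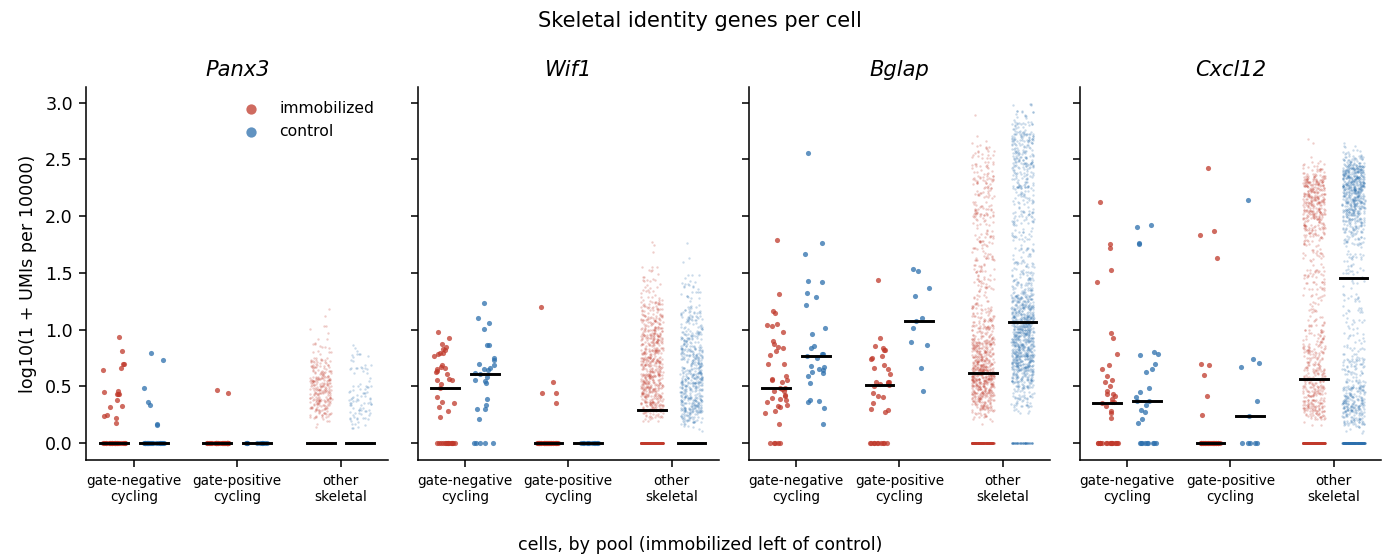
Levels of Panx3, Bglap, Wif1 and Cxcl12 per cell as log10 of 1 plus UMIs per 10000 (vertical axis), with 1 point per cell, in gate-negative cycling, gate-positive cycling and other skeletal cells (horizontal axis), the immobilized pool left of the control pool, with black bars at the medians. Bglap and Cxcl12 have a dense upper band in other skeletal cells that holds few cycling cells, while Wif1 is found in 28 of 43 immobilized and 24 of 29 control cycling cells.

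Tnfsf11 itself was scarce in dividing cells. Gate-negative cycling cells held 4 UMIs in 3 cells in the immobilized pool and 5 UMIs in 4 cells in the control pool, at 10.7 and 15.6 CPM, against 69.5 and 36.6 CPM in other skeletal cells. With so few UMIs no difference between the pools was detectable. Csf1, the macrophage growth factor gene that acts beside RANKL on osteoclast precursors, stood at 253 and 290 CPM in cycling cells, against 245 and 216 CPM in other skeletal cells, log2 ratios of 0.05 in the immobilized and 0.43 in the control pool.

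Phase was called from scores over 43 S phase and 51 G2/M genes, none of them a rule gene. The cells were nevertheless chosen by genes made from S phase to mitosis, so that choice shaped the phase shares. A set chosen by Mcm2 to Mcm7 and Pcna instead, after the data were seen, also held gate-positive cells. In it 36 immobilized and 23 control cells were called S, 28 and 15 G2/M, and 37 and 31 G1. Pcna is itself part of the S score. Most gate-negative cycling cells were called G2/M, 31 of 43 in the immobilized pool (72.1%) and 16 of 29 in the control pool (55.2%). S phase took 10 (23.3%) and 11 (37.9%), a difference of -14.7 points (interval -35.4 to 6.36), and 2 cells of each pool were called G1. Of gate-positive cycling cells, 22 of 37 immobilized (59.5%) and 3 of 11 control (27.3%) cells were called S, and 15 and 8 were called G2/M. The difference in S phase was 32.2 points there, with an interval of -1.18 to 54.7. Over all cycling cells the S share was 40% in the immobilized and 35% in the control pool, so the sign of the S phase difference turned with the gate-positive cells. In other skeletal cells 5.48% of immobilized and 7.53% of control cells were called S and 11.9% and 7.91% G2/M, which is the level the same calls give where the rule genes are at 2 UMIs or fewer. Free RNA and depth enter these calls as well, and their part was not tested.

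Single genes differed with the calls, whose scores they are part of. Pcna, the sliding clamp of the replication fork, stood at 374 CPM in S-called against 125 CPM in G2/M-called gate-negative cells of the immobilized pool and at 281 against 76.2 CPM in the control pool. Cdc20, an activator of the anaphase-promoting complex, had 0 UMIs in S-called and 211 CPM in G2/M-called immobilized cells, and 17.0 against 196 CPM in control cells. Ube2c, the ubiquitin-conjugating enzyme of that complex, stood at 55.3 against 200.1 CPM in the immobilized pool and at 17.0 against 403 CPM in the control pool. Pcna was thus higher in S-called cells and Cdc20 and Ube2c in G2/M-called cells of both pools. The replication histone gene Hist1h1b, which is in neither scored list, stood at 194 against 150.1 CPM in the immobilized but at 136 against 158 CPM in the control pool. By leading list, 4 of 15 immobilized and 8 of 16 control osteo-primed cells were in S phase, as were 2 of 13 and 0 of 5 early osteoblast cells. Of the cells just inside the rule, with exactly 3 rule UMIs, 2 of 8 immobilized and 5 of 6 control cells were called S, and of those just outside, with 2, the counts were 4 of 22 and 2 of 5.

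**Figure D3:**
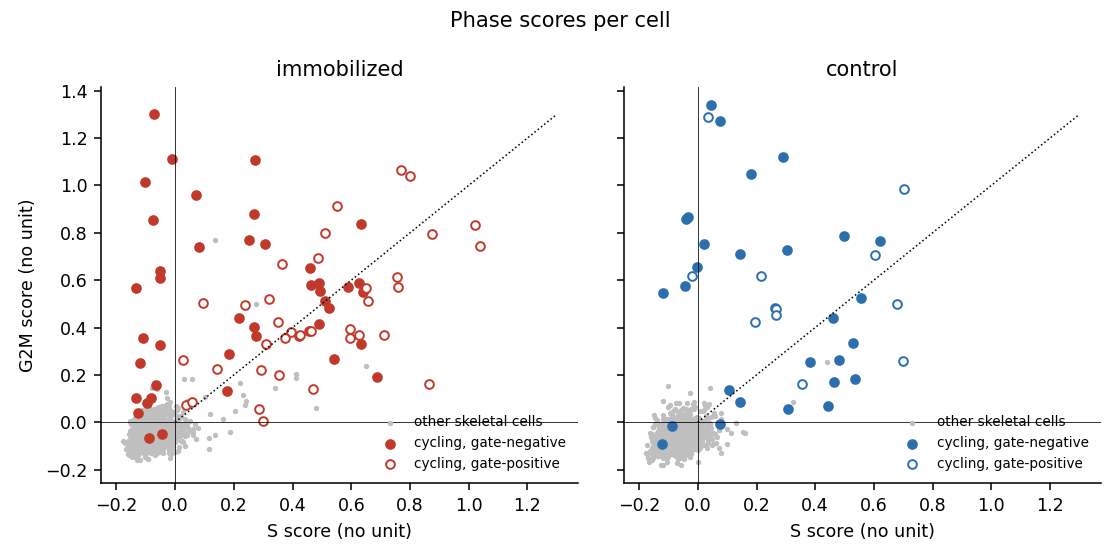
S score (horizontal axis, no unit) against G2M score (vertical axis, no unit) for each cell, immobilized pool left of the control pool, with filled points for gate-negative and open points for gate-positive cycling cells and grey points for other skeletal cells. The dotted diagonal divides the calls: 31 of 43 immobilized and 16 of 29 control filled points were called G2/M, and 22 of 37 and 3 of 11 open points were called S.

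The cell cycle programme outside the rule genes was present throughout. Against other skeletal cells, 247 of 2879 genes (8.58%) with at least 50 UMIs were 2-fold or more higher in gate-negative cycling cells of both pools, and 34 (1.18%) were 2-fold or more lower in both. In each pool alone, 306 (10.6%) and 413 (14.3%) were higher and 71 (2.47%) and 69 (2.4%) lower in the immobilized and the control pool. Of the S phase list, 18 of 43 genes reached that minimum and 17 of the 18 were 2-fold higher in both pools, with a median log2 ratio of 3.62 in the immobilized and 4.26 in the control pool. Of the G2/M list, 43 of 51 reached it and 42 were 2-fold higher in both, with medians of 5.44 and 6.04. The median over all 2879 genes was 0.18 in the immobilized and 0.28 in the control pool. Genes of these lists are made together with the rule genes in any dividing cell, so the counts describe the cells and support nothing more.

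Of 18 genes of the kinetochore and spindle checkpoint, 12 were measured and 12 were 2-fold higher in both pools. Cenpe, the kinetochore motor that carries chromosomes to the metaphase plate, stood at 344 CPM in the immobilized and 255 CPM in the control cycling cells, against 1.11 and 1.47 CPM in other skeletal cells. Knl1, the scaffold on which the checkpoint assembles, stood at 256 and 237 CPM, against 3.34 and 1.9 CPM. Both genes were thus below 4 CPM in the other skeletal cells of each pool. All 11 measured genes of 13 in the list of replication histones and chromatin or tubulin partners were 2-fold higher in both pools. Of these, the histone gene Hist1h2ap stood at 264 and 492 CPM, against 9.89 and 7.9 CPM. Replication histone messages mostly lack a poly(A) tail, which the 3' chemistry needs. Among condensin and cohesin genes, 6 of 9 measured were 2-fold higher in both pools, with the condensin core gene Smc4 at 634 and 495 CPM, against 68.6 and 47.7 CPM. The cohesin gene Stag1, at 0.29 and 0.63, was not among them.

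Cyclin genes parted by type. The mitotic cyclin genes Ccnb1 and Ccna2 stood at 66.6 and 87.9 CPM in immobilized and 103 and 106 CPM in control cycling cells, and each was at 2 CPM or less in other skeletal cells of both pools. The D cyclins, which couple growth signals to the start of the cycle, were not raised in common. Ccnd2 was lower than in other skeletal cells, at log2 ratios of -0.97 in the immobilized and -0.40 in the control pool, whereas Ccnd1 stood at 0.09 in the immobilized and 2.47 in the control pool. Of 13 genes of cell cycle exit and inhibition 6 were measured, and 2 of them were 2-fold higher in both pools, the CDK4 and CDK6 inhibitor genes Cdkn2c (3.27 and 3.73) and Cdkn2d (2.36 and 1.73). The p21 gene Cdkn1a stood at -0.42 and -0.58.

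The genes with the highest ratio outside every cell cycle list were again genes of division. Neil3, a DNA glycosylase gene of S phase, stood at 163 and 140 CPM in immobilized and control cycling cells, against 0.124 and 0.105 CPM in other skeletal cells. Racgap1, which organises the central spindle in cytokinesis, stood at 173 and 178 CPM, against 0.741 and 0.421 CPM, and Aspm, a spindle pole gene, at 184 and 199 CPM, against 1.85 and 1.47 CPM. Others were Depdc1a, Melk, Esco2, Pbk, Kif15, Diaph3, Shcbp1 and Cit, whose log2 ratios lay between 6.28 and 8.41 in the immobilized and between 6.59 and 8.19 in the control pool.

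The promoters of the G2/M list and the S phase list differed in their share with the motif TTTGAA but little in their share with CCAAT. Many genes of G2 and mitosis are repressed in resting cells through a cell cycle homology region, TTTGAA, that works with CCAAT boxes, whereas S phase genes are mostly controlled through E2F sites. Windows of 300 bases, from 250 before to 50 after the RefSeq start on GRCm38.p6, were searched on both strands, and neither motif holds the other. TTTGAA was found in 29 of 44 matched promoters of the G2/M list (65.9%), against 18.1% of all 27025 promoters, and CCAAT in 33 of 44 (75%), against 37.9%. In the S phase list, with 31 of 43 promoters matched, TTTGAA was found in 5 (16.1%) and CCAAT in 22 (71.0%). Both motifs were held by 23 G2/M promoters (52.3%), 4 S phase promoters (12.9%) and 7.12% of all promoters. A match is a run of letters and not a shown site. The promoters of Hmgb2 and Ckap5 are shown as G2/M promoters with both motifs and that of Hells as an S phase promoter with neither, 5′ to 3′ on the strand of the gene, with the motifs on either strand in capitals. They lie at chr8:57511593-57511892, chr2:91526512-91526811 and chr19:38930740-38931039, all on the plus strand.
Hmgb2: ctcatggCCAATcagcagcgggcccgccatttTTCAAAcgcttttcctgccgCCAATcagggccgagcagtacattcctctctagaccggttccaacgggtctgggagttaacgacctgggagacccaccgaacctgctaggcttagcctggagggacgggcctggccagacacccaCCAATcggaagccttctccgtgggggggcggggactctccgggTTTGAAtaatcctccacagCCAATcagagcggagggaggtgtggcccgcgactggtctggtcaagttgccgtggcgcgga
Ckap5: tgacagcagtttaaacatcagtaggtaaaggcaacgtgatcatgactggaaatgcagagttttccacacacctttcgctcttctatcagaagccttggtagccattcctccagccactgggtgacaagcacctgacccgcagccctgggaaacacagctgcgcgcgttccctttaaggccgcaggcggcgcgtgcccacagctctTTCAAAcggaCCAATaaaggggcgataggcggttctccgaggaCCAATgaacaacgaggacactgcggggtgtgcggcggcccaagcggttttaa
Hells: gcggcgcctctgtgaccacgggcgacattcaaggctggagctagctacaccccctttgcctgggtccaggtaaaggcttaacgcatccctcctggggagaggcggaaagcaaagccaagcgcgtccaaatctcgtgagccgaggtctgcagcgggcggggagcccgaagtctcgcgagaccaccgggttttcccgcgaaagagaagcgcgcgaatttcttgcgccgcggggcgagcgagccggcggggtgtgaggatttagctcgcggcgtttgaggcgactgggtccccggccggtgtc
Hmgb2, a chromatin protein gene of dividing cells, stood at 1500 CPM in immobilized and 1100 CPM in control cycling cells, against 67.8 and 53.1 CPM in other skeletal cells. Ckap5, a microtubule polymerase gene of the spindle, stood at 274 and 377 CPM, against 80.4 and 66.2 CPM. Hells, a chromatin remodeller gene of replicating cells, stood at 98.6 and 125 CPM, against 9.14 and 5.58 CPM. All 3 genes were higher in cycling cells of both pools, with or without the letters.

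Among lineage lists, the CAR markers were lower and the early osteoblast markers level. Of 12 CAR genes, 10 were measured, all 10 were lower in cycling cells than in other skeletal cells of both pools, and 6 were 2-fold or more lower in both, with medians of -1.33 in the immobilized and -2.45 in the control pool. Lepr stood at 58.6 CPM in immobilized and 162 CPM in control cycling cells, against 583 and 669 CPM, and Ebf3, a transcription factor gene that maintains CAR cells, at 104 and 121 CPM, against 648 and 773 CPM. Igfbp5, an insulin-like growth factor binding protein gene, had the lowest ratio of the 2879 genes in the immobilized pool, at -4.35, with -3.36 in the control pool. The other genes outside the CAR list that were named for the lowest ratios were Fbn1, Apoe, Bglap, Bglap2, Plpp3, Serping1 and Pdgfrb. The 11 osteo-primed markers had medians of 0.30 in the immobilized and 1.21 in the control pool, and none was 2-fold higher in both. Tnc, the matrix protein tenascin C, stood at 4905 and 5224 CPM in cycling cells, against 3297 and 1937 CPM. The 8 measured early osteoblast markers of 10 had medians of 0.00 in the immobilized and 0.03 in the control pool, and the osteoblast transcription factor gene Runx2 stood at -0.11 and 0.53.

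**Figure D4:**
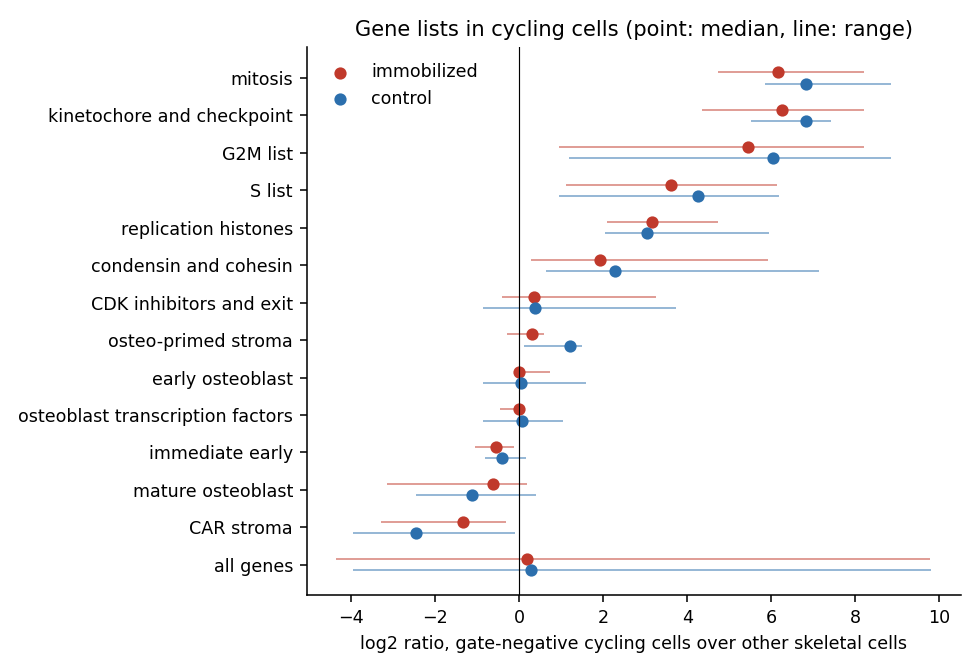
Median (point) and range (line) over measured genes of the log2 ratio of gate-negative cycling cells over other skeletal cells (horizontal axis) for each gene list (vertical axis), with the immobilized pool above the control pool in each row. Lists of division lie far to the right of 0 (G2/M medians 5.44 and 6.04), CAR markers lie to the left (-1.33 and -2.45) and early osteoblast markers lie at 0.00 and 0.03.

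CAR-led cells made up 277 of the 1222 immobilized and 550 of the 1314 control other skeletal cells. A narrower comparison, added after the data were seen, set the 28 immobilized and 21 control cycling cells led by the osteo-primed or early osteoblast lists against 522 immobilized and 247 control cells that were led by the same lists and were not cycling. Bglap was lower in cycling cells there too, at log2 ratios of -1.70 in the immobilized and -1.55 in the control pool, at 358 and 502 CPM against 1173 and 1474 CPM. Cxcl12 stood nearer to its level in the other cells, at -0.33 and -0.73. Wif1 stood at -0.91 and -0.32 and Panx3 at 0.22 and 0.15. Wif1 and Panx3 belong to the lists that led these cells, and Bglap and Cxcl12 to lists that competed with them. The ratios of these genes were thus set in part by the assignment. Of the 12 genes named for the lowest ratios over all other skeletal cells, 11 were also lower in both pools here and 4 were 2-fold lower in both. The exception was the adiponectin gene Adipoq, at 0.87 (interval -2.57 to 2.65) in the immobilized and 0.59 (interval -0.90 to 1.70) in the control pool, where 2 and 7 UMIs in cycling cells leave its direction undetermined.

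Matrix genes parted in this comparison. The fibrillar collagen gene Col1a1 stood at -0.23 and -0.33, the bone sialoprotein gene Ibsp at -0.04 and 0.02 and Tnc at -0.02 and -0.04. The osteopontin gene Spp1 stood at 0.11 and -0.73, the collagen gene Col12a1 at 0.22 and 0.51 and Bglap2 at -1.87 and -1.72. These bone matrix genes thus had no common direction between cycling cells and cells of the same lists that were not cycling. Col1a1, Ibsp, Tnc, Spp1 and Bglap2 are also on the marker lists that assigned the cells. Their ratios were thus set in part by that assignment. The minor collagen genes Col11a1 (-1.06 and -0.84) and Col11a2 (-1.02 and -1.24) were lower in both pools, as were the D cyclin genes Ccnd2 (-1.51 and -1.09) and Ccnd3 (-1.43 and -1.35). Ccnd1 stood at -0.56 in the immobilized and 0.94 in the control pool.

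Gene levels within the cycling cells were then compared between the pools. Over all cycling cells, 154 of 4089 genes with at least 50 UMIs (3.77%) were 2-fold or more higher in the immobilized pool and 77 (1.88%) were 2-fold or more lower. Within gate-negative cycling cells it was 46 of 2879 (1.6%) higher and 59 (2.05%) lower, and within other skeletal cells, over the same genes, 49 (1.7%) higher and 8 (0.278%) lower. The sets differ in their number of cells, so these counts cannot be compared for size. Among gate-negative cycling cells the G2/M genes split evenly, 22 of 43 higher and 21 lower around a median of 0.01 on the log2 scale, and 12 of 18 S phase genes were higher (median 0.06). The kinetochore list had a median of 0.01, the mitosis list -0.20 and the replication histone list 0.01, beside a median of 0.02 over all genes. None of the 43 measured G2/M, 12 mitosis and 12 kinetochore genes differed by 2-fold. The replication inhibitor gene Gmnn was the 1 of 18 S phase genes that was 2-fold higher, Hist1h2ae the 1 of 11 in the histone list and Ccnd1 the 1 of 7 cyclin and CDK genes that were 2-fold lower. Against 1.6% and 2.05% of all genes, lists of this size do not set the cell cycle genes apart.

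The genes named as higher in the immobilized pool were mostly transcripts of the gate-positive cells. St6galnac3, a sialyltransferase gene, stood at 350 CPM in immobilized and 93.4 CPM in control cycling cells, but at 29.3 and 28 CPM in the gate-negative and 1038 and 485 CPM in the gate-positive ones. Tmem56 stood at 212 and 26.7 CPM over all cycling cells, at 24 and 12.5 CPM in gate-negative and 616 and 112 CPM in gate-positive cells. For each of 11 such genes, Dach1, Tmem56, Nmnat3, Ccdc88c, Abcb4, Exoc6, St6galnac3, Rfx2, Clcn3, Hagh and Syne1, the immobilized gate-positive cells were above the immobilized gate-negative ones, and their log2 ratios over all cycling cells lay between 1.77 and 3.04. Of the erythroid list, 5 of 6 measured genes were 2-fold higher over all cycling cells, with a median of 1.43, beside the gate-positive share of 46.3% in the immobilized and 27.5% in the control pool. Within gate-positive cycling cells alone the ratios were 0.14 for Ermap, 0.23 for Rhag, -0.11 for Car2 and 0.43 for Tfrc, each with an interval that includes 0. The genes named as higher were also higher there. Syne1 (3.09), Tmem56 (2.35), Hagh (1.90), Dach1 (1.77), Nmnat3 (1.66), Rfx2 (1.12), St6galnac3 (1.07) and Clcn3 (0.87) had intervals above 0. Those of Ccdc88c (0.93), Abcb4 (0.70) and Exoc6 (0.76) included 0. Of the genes with intervals above 0, all but St6galnac3 and Clcn3 had 7 UMIs or fewer in the control gate-positive cells.

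The genes named as lower had most of their UMIs in the gate-negative cells. Within gate-positive cycling cells Bglap (-1.71), Bglap2 (-1.80), Socs2 (-2.36) and Trpc6 (-4.52) were also lower, with intervals that leave out a ratio of 1. Socs2 and Trpc6 had 5 UMIs or fewer there in each pool. The intervals of the other genes named as lower included that ratio. Col8a1, a short-chain collagen gene of stromal matrix, stood at 147 CPM in immobilized and 667 CPM in control gate-negative cycling cells, a log2 ratio of -2.18 (interval -2.64 to -1.75), while other skeletal cells stood at 379 and 393 CPM. Trpc6, a calcium-permeable channel gene, stood at 181 and 570 CPM, which gives a log2 ratio of -1.65 (interval -2.08 to -1.24), against -0.67 in other skeletal cells. Ccnd1, the D cyclin that growth signals induce, stood at 82.6 and 221 CPM (log2 ratio -1.41, interval -2.08 to -0.79), whereas in other skeletal cells it was higher in the immobilized pool, at 79 against 40 CPM. Both directions for Ccnd1 were thus seen within the same pools. Kcnt2, a potassium channel gene, also parted, with -1.37 in cycling and 0.59 in other skeletal cells. The remaining genes named as lower, Ank3, Glis3, Pi15, Pcdh9, Slc24a3, Socs2 and the osteocalcin genes Bglap and Bglap2, had ratios between -2.48 and -1.29 in gate-negative cycling cells. Of the Bglap2 UMIs there, 1 control cell held 76.5%, and with the highest cell of each pool left out the ratio was -1.03 for Bglap2 and -0.96 for Pcdh9.

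In the narrower comparison, Ccnd1 stood at 93.3 CPM in the 28 immobilized and 266 CPM in the 21 control cycling cells, a log2 ratio of -1.49 (interval -2.24 to -0.82), and at 140 and 139 CPM in cells of the same lists that were not cycling. Glis3, a zinc finger transcription factor gene, gave -2.79 in cycling and -0.55 in the other cells, and Socs2, a feedback inhibitor of growth hormone signalling, -1.90 and -0.17. For Trpc6 the values were alike in both sets, -1.71 in cycling and -1.61 in the other cells. Pdgfra and Pdgfrb, receptor genes for platelet-derived growth factors, parted in cycling cells, at 1.19 and -1.64, with 0.17 and -0.37 in the other cells. Col1a1 was higher in the immobilized pool in both, at 0.84 and 0.74. Bglap gave -0.49 (interval -0.89 to -0.09) and Cxcl12 0.11 (interval -0.18 to 0.41) in cycling cells. None of the differences between the cycling and the other cells could be tested with 1 pool per group.

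**Figure D5:**
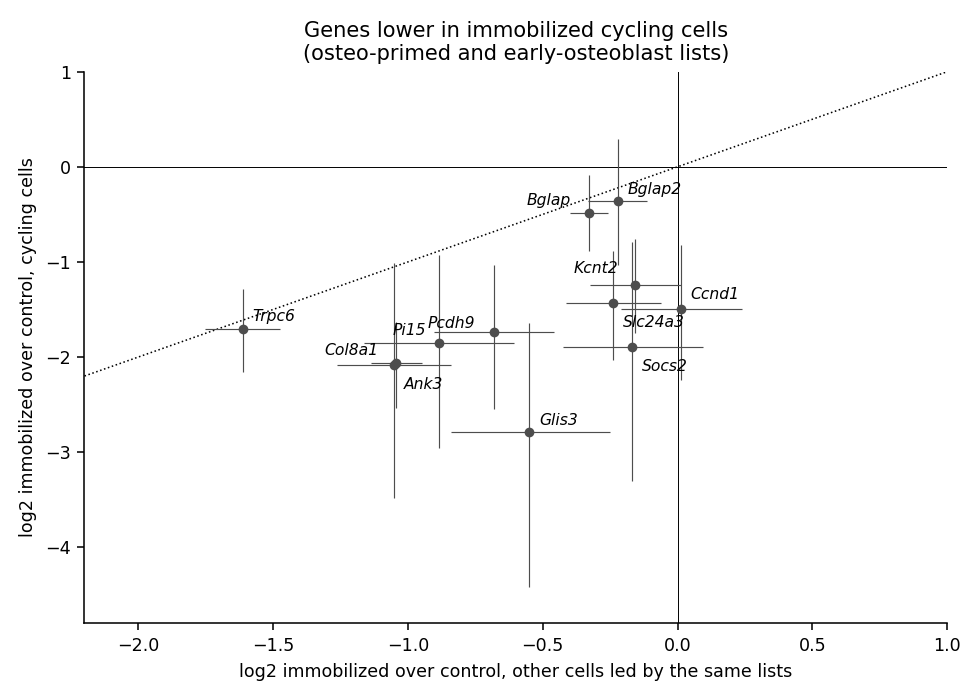
Immobilized over control log2 ratio in cycling cells (vertical axis) against the same ratio in other cells led by the same 2 marker lists (horizontal axis), with 1 point for each of the 12 genes named as lower, intervals for counting error and a dotted line where both ratios are equal. Ccnd1 lies at -1.49 in cycling and 0.01 in other cells and Glis3 at -2.79 and -0.55, while Trpc6 lies at -1.71 and -1.61.

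Immediate early genes and the lineage lists were compared as groups within gate-negative cycling cells. All 6 measured genes of 12 in the stress and immediate early list were lower in the immobilized pool, with a median of -0.50, beside -0.48 in other skeletal cells, where all 6 were lower too. Over all 2879 genes, 1384 were lower in cycling and 898 in other skeletal cells, with medians of 0.02 and 0.16. Egr1, a transcription factor gene induced by serum and by tissue handling, stood at 181 CPM in the immobilized and 355 CPM in the control pool. Of the 11 osteo-primed markers 8 were lower, with a median of -0.15, whereas 11 of 11 were higher in other skeletal cells, with a median of 0.71. Over all genes 1495 of 2879 were higher in cycling and 1981 in other skeletal cells, and the osteo-primed list led 313 of 1222 immobilized and 172 of 1314 control other skeletal cells. The early osteoblast list had a median of 0.31 with 6 of 8 higher in cycling cells, and 7 of 8 were higher in other skeletal cells. The adipocyte gene Fabp4 had the highest ratio in gate-negative cycling cells, 6.44, and it came from 1 adipocyte-led cell of 20910 UMIs.

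The sexes were mixed unevenly. Of gate-negative cycling cells that could be sexed from Xist and Y-linked transcripts, 57.6% were female in the immobilized and 83.3% in the control pool, beside 51.2% and 66.0% of other skeletal cells. Among female gate-negative cells 4.02% of the immobilized and 3.05% of the control pool were cycling, and among male ones 3.14% and 1.21%, so the immobilized share was the higher in each sex. The intervals of both differences include 0, at -1.19 to 3.38 points in female and -0.31 to 4.12 points in male cells. In female cycling cells alone 66 genes were 2-fold higher and 94 lower in the immobilized pool, against 154 and 77 in all cycling cells, and the log2 ratio of Col8a1 was -2.62. What else the sex make-up of the pools adds to the gene ratios was not tested.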

How the data were processed

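Single-cell 3' RNA-seq libraries (10x Genomics) came from 1 pool of immobilized and 1 pool of control mice, each read on 2 lanes. The authors made the deposited matrices with Cell Ranger 7.0.0 on mm10, per the submitters' processing notes, with an annotation release not given in the sources used here. The deposited values are raw UMI counts per gene and barcode, not normalized, and the barcode and gene tables beside them hold other, non-numeric entries. Per the file headers these are integer matrices, and 0 columns were left unused.

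Lane 1 was the main data and lane 2 an alternative, since the lanes re-read the same libraries. Kept cells had at least 500 genes and under 10% mitochondrial UMIs. A cell with at least 3 of 35 blood genes was gate-positive. Phase came from scanpy 1.11.5 (score_genes_cell_cycle over all kept cells), with the larger positive score deciding. The leading list of a cell was the one with the highest mean standardised log level. Counts were summed over cells and divided by total UMIs (CPM), and log2 ratios used a pseudocount of 0.5 over genes with at least 50 UMIs in the cycling cells of both pools together, so genes made almost only in other cells were not measured. A 2-fold ratio was called. Shares have exact Clopper-Pearson, levels Poisson, ratios conditional binomial and share differences Newcombe intervals at 95%, and a count of 0 allows up to 3. For comparisons across depth, cells were thinned to 2000 UMIs. Scrublet called 8 doublets in the immobilized (0.572%) and 12 in the control pool (0.842%), and they were kept, since so few calls may mean that the caller found few of them. Cells with at least 3 Xist UMIs and no Y-linked UMI were called female, and cells with a Y-linked UMI and fewer than 3 Xist UMIs male.

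The named genes were the 12 highest and 12 lowest immobilized over control ratios over all cycling cells that had a UMI in at least 20% of cells of 1 pool, an interval that leaves out a ratio of 1, and a sign that held in lane 2 and without gate-positive cells. Blood, mitochondrial, ribosomal, Y-linked and unnamed genes and Xist were not ranked. Against other skeletal cells, the same numbers outside the cell cycle lists were ranked by the lower of the pool ratios. Of the genes so named, 2 are not reported here. The cycling cells, gene lists and comparisons were chosen with earlier results of these data known. The computation used Python 3.11.15, numpy 2.4.6, scipy 1.17.1, pandas 2.3.3, statsmodels 0.14.6 and matplotlib 3.10.9, and was tested on simulated data. RefSeq promoters and gene positions were those of GRCm38.p6.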

Additional observations from a re-analysis of the deposited data

Results flagged for a closer look

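The rule left out cells with a Ptprc UMI, and these cells belong to no comparison above. At least 3 UMIs of Mki67, Top2a and Cenpf together with a Ptprc UMI were found in 19 of 1399 immobilized cells (1.36%) and 6 of 1426 control cells (0.421%), a difference of 0.94 points (interval 0.24 to 1.72). These dividing cells carried a leukocyte transcript although the sort had been set against CD45.2, the protein of that gene. They were listed because the rule left them out of the comparisons. The haemoglobin limit removed 0 cells in either pool.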

How the results depend on the processing

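No paired analysis was possible because the lane numbers mark repeated reads of the same pool and no result came from a test. Of the values answering a comparison, 96 changed little under an alternative, 26 moved further and 1, the Cxcl12 ratio, turned from an interval below 0 to one above it. Changes of sign in values whose interval includes 0 are among the other counts. The difference in cycling share (2.91 points) was 4.77 with the looser cell filter, 1.04 without gate-positive cells and 0.61 in gate-negative cells led by a skeletal list. The S phase difference (5.00 points) was -14.7 and -17.0 in those sets. The Panx3 log2 ratio over all cycling cells (0.76) was -0.078 with the stricter cell filter. The Bglap ratio (-2.57) was -3.61 with the stricter filter, -3.13 with at least 5 and -2.35 with at least 2 rule UMIs, and -1.17 without the cell holding most UMIs. The Cxcl12 ratio (-0.34) was -1.01 with the stricter and -0.60 with the looser filter, 0.22 with at least 2 rule UMIs, -0.61 without Scrublet calls and -0.15 without the top cell. The difference in cells with Bglap (-18.8 points) was -28.7 after thinning. Genes 2-fold higher (154) numbered 46 without gate-positive cells, 443 with a minimum of 20 UMIs, 233 with cells weighted equally, 54 in cells called G2/M and 66 in female cells, and genes 2-fold lower (77) numbered 174 with the looser filter, 51 with at least 2 rule UMIs, 257 with a minimum of 20 UMIs and 162 with equal weights. The genes tested changed wherever the minimum or the cells changed, so those counts cannot be compared for size. On lane 2 alone the counts of genes 2-fold higher and lower became 148 and 97. There the cycling share difference was 3.31, the S phase difference 0.78 and the gate-positive share difference 7.84 points. Lane 2 log2 ratios were 1.21 for Panx3, -2.62 for Bglap, -0.60 for Wif1 and -0.088 for Cxcl12, and differences in cells with a UMI were 10.5, -18.4, -2.62 and -0.69 points. All 24 named genes kept their sign in each setting run, which the naming rule itself required on lane 2 and without gate-positive cells. On lane 2 Hagh (0.53) and Syne1 (0.91) were under 2-fold and Dach1 was 1.06. The alternatives without the top cell, led by a skeletal list and in female cells were chosen after seeing the data. The cause of these shifts was not tested, and 40 control cells limit the precision of each value.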

Other observations

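Replication licensing genes named a wider set of cells than Mki67, Top2a and Cenpf. At least 3 UMIs of Mcm2 to Mcm7 and Pcna were found in 101 immobilized cells (7.22% of kept cells) and 69 control cells (4.84%), within the same limits on Ptprc and haemoglobin. Of these, 43 immobilized (42.6%) and 22 control cells (31.9%) were also cycling cells by the rule. The gate-positive share was lower in this set, at 24.8% of the immobilized and 11.6% of the control cells. This set was chosen after seeing the data.

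Few cycling cells were led by the adipocyte or chondrocyte list. Of the 10 chondrocyte markers 2 were measured, and 1 of them was 2-fold higher in gate-negative cycling cells than in other skeletal cells of both pools. Of the cells led by the chondrocyte list, 3 of 26 immobilized cells (11.5%) and 0 of 21 control cells were cycling, and 0 of 21 allows a share of up to 14.3%. The 1 adipocyte-led cycling cell was in the immobilized pool.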
